A study of Mus musculus with 8 samples.

Results

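The genes that sense and repair DNA damage were followed in mouse embryonic stem (mES) cells, either untreated or exposed to CX-5461, an inhibitor of RNA polymerase I, which makes the precursor of rRNA. The set held 39 genes, chosen by symbol, of the 54146 gene identifiers in both count tables, and all 39 were found. They were sorted by role into 7 damage sensing and checkpoint genes, 12 genes of homologous recombination, 4 Fanconi genes, 8 genes of excision repair and nick sealing, 2 of mismatch repair, 4 of end joining, and Polk and Rrm2b, which serve damage tolerance and nucleotide supply. The cells derived from the inner cell mass and grew in LIF/2i medium on feeder fibroblasts in both conditions, and the labels give neither dose nor time of the treatment. The labels name 4 samples per condition, but the cells of a condition stand in 1 table without sample of origin, so each condition was read as 1 library, shared barcodes could not be counted, and no test between conditions was possible.

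A cell meets broken, modified or mispaired DNA with separate routes. The kinases ATM and ATR signal damage to the checkpoint kinases, homologous recombination copies an intact sister, end joining religates the ends, the Fanconi proteins handle crosslinks, and excision and mismatch repair cut out damaged or wrong bases. mES cells divide fast, spend much of their cycle in S phase and are known for high levels of recombination proteins. Several repair genes, among them Xpc, Polk and Rrm2b, are known targets of p53.

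Levels were unique molecular identifiers (UMIs, each marking 1 captured RNA molecule) summed over cells and given as counts per 1000000 UMIs (CPM), so that fewer expressing cells and less RNA per cell cannot be told apart. The cells compared were those of clusters with embryonic stem cell markers (ES-like) that held 5000 UMIs or more, of which mitochondrial genes took no more than 0.1. They numbered 2331 in the control library, with 41256336 UMIs, and 3929 in the CX-5461 library, with 60519899 UMIs. The median cell held 15951 and 14745 UMIs. Mitochondrial genes took a median of 1.88% and 4.00% of a cell's UMIs, and ribosomal protein genes 29.3% and 24.1% of all UMIs. Each ES-like cluster held cells of 1 library, apart from 1 control cell in a cluster with 2702 CX-5461 cells, so cluster and treatment cannot be told apart. Over the 11557 genes with at least 200 UMIs in both libraries together, the median log2 ratio of CX-5461 over control was 0.36, and a gene was called higher or lower when it lay at least 1.5-fold from that median. Intervals in parentheses are exact at 95% and cover counting error only, with no replicate behind them.

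The set, chosen with earlier results of these data known, leaned upward by a little. Of the 39 genes, 10 were called higher (Ercc5, Prkdc, Polk, Ddb2, Trp53bp1, Xrcc1, Rad51c, Atr, Fancd2 and Rad50) and 2 lower (Rrm2b and Bard1), beside 21.1% higher and 17.0% lower among all genes tested. The share called higher was near that background, and the count called lower was small. The median log2 ratio of the 39 genes was 0.55, which is 0.19 above the median of all genes. On library totals 33 genes had a log2 ratio above 0, but only 26 did with the TMM factor between the libraries, which lowers every log2 ratio by 0.40, and on either scale 27 exceeded the all-gene median. Summed over the set, the level was 1219.5 CPM in control and 1426.6 CPM in CX-5461-treated cells. With each cell thinned to 5000 UMIs, the median cell held 6 UMIs of the set in control (quartiles 4 and 8) and 7 after treatment (quartiles 5 and 9).

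The genes called higher were mostly weakly expressed ones. Among genes with a mean level under 10 CPM, 29.8% of all genes were called higher, and so were 8 of the 15 members there. Between 10 and 30 CPM none of 15 members was called higher, beside 18.3% of all genes. Between 30 and 100 CPM 2 of 6 members were, beside 12.7%, and over 100 CPM 0 of 3, beside 8.17%. When each gene was instead measured against genes of its own level, a choice made after the data were seen, 9 of the 10 remained called higher and Fancd2 did not. Just inside the limit for a higher call lay Rad50, 0.64 above the median of all genes in log2, and just outside lay Fanci at 0.51 and Chek2 at 0.50. On the lower side Bard1 lay 0.82 below that median, while Chek1, at 0.56, and Lig1, at 0.55, stopped just short of the limit of 0.585 in log2.

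**Figure D1:**
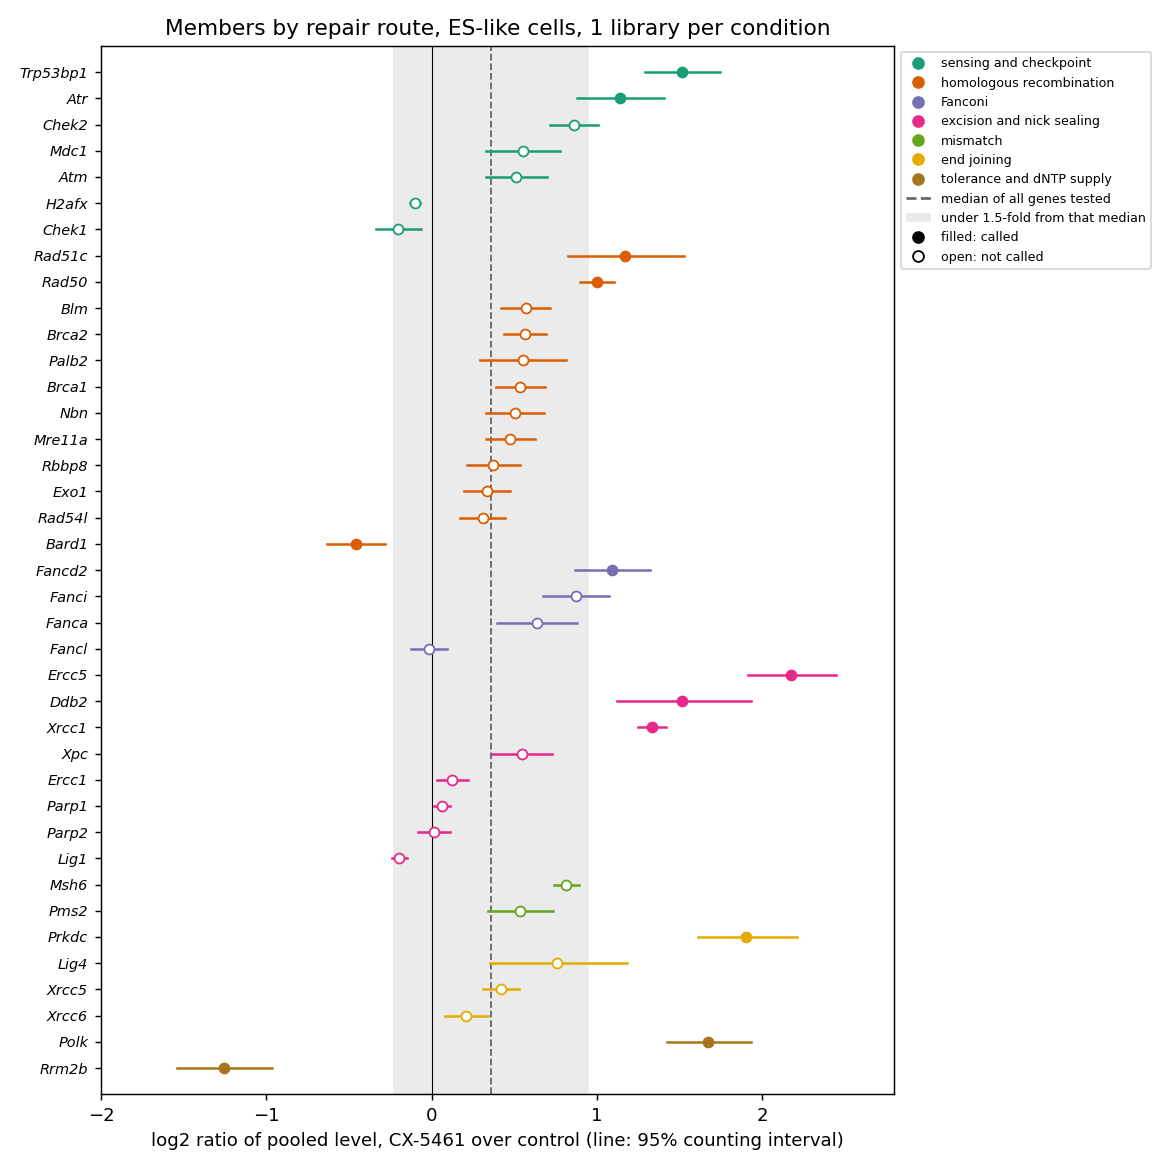
Log2 ratio of the pooled level, CX-5461 over control, for each of the 39 genes in ES-like cells (horizontal axis), grouped by repair route in colour, with lines for 95% counting intervals; filled points were called. Ercc5 lies farthest right at 2.17 and Rrm2b farthest left at -1.25, and most of the recombination genes lie just right of the median of all genes (dashed, 0.36).

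Promoter windows, the 250 bases before the start that RefSeq gives, were matched for 29 of the 39 genes by symbol in a table from RefSeq on GRCm38.p6. H2afx, Rad50, Nbn, Rbbp8, Exo1, Fancd2, Ddb2, Xpc, Prkdc and Rrm2b had no entry there. The RefSeq start is not always the outermost start of the GENCODE gene used for the coordinates here, and 6 windows (Chek1, Fanci, Fancl, Xrcc1, Ercc1 and Xrcc6) lie wholly inside that gene, for Xrcc6 with a start 28534 bases in. The windows of Ercc5, Polk and Trp53bp1 are shown because these were among the genes with the highest ratios, and that of Bard1 because it was called lower and holds an E2F match. They lie at chr1:44147494-44147743 on the plus strand (Ercc5), and on the minus strand at chr13:96542580-96542829 (Polk), chr2:121271408-121271657 (Trp53bp1) and chr1:71102973-71103222 (Bard1). Capitals mark matches, on either strand, to the NF-Y letters CCAAT, the GC box GGGCGG and the E2F letters TTTCGCGC, TTTGGCGC, TTTCCCGC or TTTGCCGC, and E2F and GC box letters can share bases where they adjoin.
Ercc5: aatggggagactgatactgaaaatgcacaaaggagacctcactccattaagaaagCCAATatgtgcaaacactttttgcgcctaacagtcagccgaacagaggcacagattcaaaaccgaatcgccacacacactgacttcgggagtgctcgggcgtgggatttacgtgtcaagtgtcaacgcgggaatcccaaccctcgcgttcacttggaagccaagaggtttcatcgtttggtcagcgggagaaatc
Polk: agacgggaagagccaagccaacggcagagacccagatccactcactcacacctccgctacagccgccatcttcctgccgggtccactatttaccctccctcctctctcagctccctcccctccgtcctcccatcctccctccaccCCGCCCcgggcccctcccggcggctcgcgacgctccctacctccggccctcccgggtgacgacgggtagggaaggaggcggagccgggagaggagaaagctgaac
Trp53bp1: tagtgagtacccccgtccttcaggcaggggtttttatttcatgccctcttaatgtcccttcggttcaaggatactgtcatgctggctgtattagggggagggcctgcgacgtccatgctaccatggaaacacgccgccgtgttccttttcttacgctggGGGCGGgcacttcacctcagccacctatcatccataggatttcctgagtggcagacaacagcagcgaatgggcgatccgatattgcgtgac
Bard1: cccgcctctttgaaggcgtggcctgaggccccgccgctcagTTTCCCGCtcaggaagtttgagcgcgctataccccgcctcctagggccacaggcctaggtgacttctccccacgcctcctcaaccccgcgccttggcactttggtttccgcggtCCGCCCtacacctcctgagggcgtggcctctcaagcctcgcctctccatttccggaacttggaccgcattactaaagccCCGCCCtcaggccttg
The E2F letters stood in 5 of the 29 windows (Chek2, Mdc1, Brca2, Bard1 and Xrcc6), beside 1.86% of all 32851 windows in the table. A match to the consensus p53 decamer stood in 1 of 29 (Fanca), beside 7.13%. GC boxes stood in 18 of 29, beside 32.7%, and CCAAT in 13 of 29, beside 33.9%. None of the 6 windows of genes called higher held p53 or E2F letters, 4 held a GC box and 2 held CCAAT. Such matches are letters in a short window and do not show binding, and their absence does not show that a gene lacks a site. Rad50, Fancd2, Ddb2 and Prkdc, also called higher, had no window to search.

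Among the sensing and checkpoint genes, 2 of 7 were called higher, beside 21.1% of all genes, which is near that background. Trp53bp1 (chr2:121193281-121271407), whose protein 53BP1 gathers at double-strand breaks and steers them toward end joining, stood at 4.92 CPM in control cells and at 14.1 CPM after treatment, which is a ratio of 2.86 (2.45 to 3.35). Atr (chr9:95857597-95951781), the kinase that answers stalled replication forks, stood at 3.81 and 8.39 CPM, a ratio of 2.21 (1.84 to 2.66). The effector kinases of the 2 signalling arms parted. Chek2, activated by ATM, had 12.8 and 23.2 CPM, a ratio of 1.82 (1.64 to 2.01), whereas Chek1 (chr9:36708482-36727065), activated by ATR, had 19.5 and 17.0 CPM, a ratio of 0.871 (0.793 to 0.956). Atm itself stood at 8.85 and 12.6 CPM, and Mdc1, the scaffold that binds phosphorylated histone H2AX, at 5.91 and 8.68 CPM, both close to the shift of all genes. H2afx, which encodes that histone and was the most abundant member, stood at 407.6 and 380.0 CPM, a ratio of 0.932 (0.914 to 0.951). None of these 5 genes was called. Because H2afx weighed so heavily, the summed level of the route, 463.4 and 464.0 CPM, barely differed while its median log2 ratio was 0.55.

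The recombination genes lay close to one another. Of 12 genes, 9 exceeded the all-gene median, with a route median of 0.52 in log2, and all but the 3 called ones lay between 0.31 and 0.57. Rad51c (chr11:87376645-87404954), a gene of homologous recombination and crosslink repair, was called higher at 2.18 and 4.91 CPM, a ratio of 2.25 (1.77 to 2.88), which rests on 90 and 297 UMIs. Rad50 (chr11:53649519-53707319), the zinc-hook ATPase that tethers broken ends, was called higher at 25.4 and 50.9 CPM, a ratio of 2.00 (1.86 to 2.15). Its partners in the same complex lay far lower on the ratio scale, Mre11a, the nuclease, at 13.5 and 18.8 CPM and Nbn, the regulatory subunit, at 9.70 and 13.8 CPM, with ratios of 1.39 (1.26 to 1.54) and 1.42 (1.26 to 1.60).

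Brca1 and Bard1 also parted, although their proteins form 1 ubiquitin ligase. Brca1 stood at 13.4 and 19.4 CPM, a ratio of 1.45 (1.31 to 1.61). Bard1 (chr1:71027498-71103146) was called lower at 12.4 and 9.02 CPM, a ratio of 0.728 (0.644 to 0.823). The intervals of the 2 ratios do not meet. Brca2 and Palb2, whose proteins bind each other, had ratios of 1.48 (1.36 to 1.61) and 1.47 (1.23 to 1.76), and the helicase gene Blm 1.48 (1.34 to 1.64). Exo1 and Rbbp8, which act in end resection, and Rad54l, a motor protein of strand invasion, had the lowest ratios of the remaining genes, 1.26, 1.30 and 1.24.

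In the Fanconi route the pair that is ubiquitinated together stood highest. Fancd2 (chr6:113531682-113597017) was called higher at 5.16 and 11.02 CPM, a ratio of 2.14 (1.83 to 2.50), and its partner Fanci, at 6.91 and 12.6 CPM with a ratio of 1.83 (1.60 to 2.10), fell just short. Fanca, a subunit of the core complex, had 4.97 and 7.73 CPM. Fancl (chr11:26386135-26471876), the ligase subunit that modifies the pair, stood at 27.9 and 27.6 CPM, a ratio of 0.989 (0.917 to 1.07), and was the lowest of the route. Fanci, Fanca and Fancl overlap counted protein-coding genes on the opposite strand, and so do Trp53bp1, Rad54l, Mre11a, Lig1, Ddb2, Ercc1, Msh6 and Xrcc6. Blm, with 557 and 1212 UMIs, overlaps the processed pseudogene Ndufab1-ps on the opposite strand, which had 517 and 1980 UMIs. Further members overlap opposite-strand genes with few UMIs. Whether counting used strand is not given in the sources used here. Among the called genes this touches Trp53bp1, whose 203 and 852 UMIs stand beside 307 and 515 of Tubgcp4, and Ddb2, beside Acp2 with 127 and 248 UMIs, while Fancd2 overlaps Fancd2os with only 6 and 1.

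The excision genes spread widely. Ercc5 (chr1:44147744-44181260), whose protein XPG makes the 3′ incision of nucleotide excision repair, had the highest ratio of the whole set, with 3.30 CPM in control (136 UMIs) and 14.9 CPM after treatment (900 UMIs), a ratio of 4.51 (3.76 to 5.44). Ddb2 (chr2:91211572-91236982), the sensor of ultraviolet lesions in chromatin, was called higher at 1.58 and 4.51 CPM, a ratio of 2.86 (2.18 to 3.81). It rests on only 65 and 273 UMIs. Xpc, the other lesion sensor, stood at 8.85 and 12.9 CPM, a ratio of 1.46 (1.29 to 1.66), and Ercc1, of the 5′ nuclease, at 35.2 and 38.4 CPM, a ratio of 1.09 (1.02 to 1.17). Neither was called.

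Xrcc1 (chr7:24546289-24573440), the scaffold of single-strand break repair, combined a high level with a call, at 33.4 and 84.2 CPM, a ratio of 2.52 (2.37 to 2.68). The proteins it works with did not share that size of difference. Parp1, the main nick sensor, stood at 142.6 and 149.2 CPM, a ratio of 1.05 (1.01 to 1.08), and Parp2, its relative, at 34.4 and 34.8 CPM. Lig1 (chr7:13277283-13311433), the ligase of replication and long-patch repair, had 177.8 and 155.3 CPM, a ratio of 0.874 (0.848 to 0.901), the lowest of the route and just outside the limit for a lower call. The route median was 0.34 in log2, near that of all genes.

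In mismatch repair Msh6, which recognises single mispairs, stood at 49.7 and 87.4 CPM, a ratio of 1.76 (1.67 to 1.85). Pms2, of the endonuclease that follows, had 7.73 and 11.2 CPM, a ratio of 1.45 (1.27 to 1.66), and neither was called. In end joining 1 gene stood apart. Prkdc (chr16:15637866-15842235), the catalytic kinase subunit that Ku recruits to ends, was called higher at 2.72 and 10.2 CPM, a ratio of 3.74 (3.06 to 4.62), whereas the Ku subunits Xrcc5 and Xrcc6 had ratios of 1.34 (1.24 to 1.44) and 1.16 (1.06 to 1.27). Xrcc6, at 18.8 and 21.7 CPM, was the lowest of the route. Lig4, the ligase of this route, stood at 1.70 and 2.88 CPM, a ratio of 1.70 (1.28 to 2.27).

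Polk and Rrm2b, both known p53 targets, went opposite ways. Polk (chr13:96480690-96542579), a translesion DNA polymerase, was called higher at 3.76 and 12.0 CPM, a ratio of 3.19 (2.68 to 3.82). Rrm2b (chr15:37923952-37961318), the small ribonucleotide reductase subunit that supplies nucleotides outside S phase, was called lower at 6.50 and 2.73 CPM, a ratio of 0.420 (0.344 to 0.511), the lowest of the set. The processed pseudogene Gm3362 lies inside Rrm2b on the same strand, overlaps 0 of its exons, and was counted far above it, at 3263.4 and 2793.3 CPM. Whether its reads entered the count of Rrm2b was not tested. The tables mark 0 counts of any member as shared with another gene.

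The rest of the repair genes, listed by the same routes, gave no such lean. Members and lists were chosen with earlier results of these data known, so the contrast only describes these lists and tests nothing. Of 120 found, 112 were tested, of which 16 were called higher and 13 lower, with a median log2 ratio of 0.36, that of all genes. The 7 tested end joining genes among them did lean upward, with a median of 0.82, 3 called higher and 0 lower. The medians of the other routes lay between 0.24 and 0.44. The highest of the 112 genes were Mgmt, which reverses alkylated guanine, at 12.5 and 76.5 CPM, Neil3, a glycosylase, at 1.16 and 4.99 CPM, and Uvssa, of transcription-coupled repair, at 0.873 and 3.49 CPM. The lowest were Rad23b, the partner of XPC, at 92.2 and 45.5 CPM, Ung, the uracil glycosylase, at 141.2 and 84.8 CPM, and Gtf2h3, a TFIIH subunit, at 25.5 and 18.2 CPM. All 6 were called. For scale, 18 of 25 p53 target genes, none of them a member, were called higher and 0 lower, with a median log2 ratio of 1.60. Cdkn1a, the cell cycle inhibitor, stood at 127.4 and 535.1 CPM, Mdm2, which degrades p53, at 32.2 and 130.2 CPM, and Ccng1, a cyclin of the p53 feedback, at 81.8 and 322.3 CPM.

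Within each library the ES-like cells fell into clusters, and those with at least 50 of the compared cells were set side by side, clusters 1 and 3 of the control library and clusters 0, 4 and 7 of the CX-5461 library. For 29 of the 39 genes every CX-5461 cluster lay above both control clusters, beside 49.4% of all genes tested. For 4 (Chek1, Bard1, Lig1 and Rrm2b) every CX-5461 cluster lay below, beside 18.8%. The control clusters were close for Ercc5, at 3.13 and 3.53 CPM, and Xrcc1, at 33.3 and 33.7 CPM, and less so for Rad51c, at 2.56 and 1.65 CPM, and Bard1, at 10.8 and 14.7 CPM.

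The CX-5461 clusters did differ, and cluster 7 lay apart. This cluster of 249 cells is led by Rgs14, Krt15 and Robo3, and the stem cell markers stood at 0.686 of their level in all cells, the lowest among the ES-like clusters. The p53 targets stood at 4908 CPM there, against 2997 CPM in cluster 0 and 3716 CPM in cluster 4. Ercc5 stood at 12.5 CPM in cluster 0, 17.4 CPM in cluster 4 and 36.5 CPM (30.2 to 43.7) in cluster 7. Xrcc1 followed the same order with 71.9, 105.0 and 163.3 CPM, as did Atr with 6.79, 9.85 and 23.7 CPM. Chek2 did too, with 19.8, 26.3 and 56.7 CPM. Bard1 ran the other way, with 9.49, 8.67 and 2.81 CPM, the last from 9 UMIs. So did the most abundant members, H2afx with 406.6, 327.4 and 257.7 CPM, Parp1 with 162.7, 118.7 and 105.3 CPM, and Lig1 with 160.4, 152.5 and 95.7 CPM. Summed over the set, the level was 1450.1, 1361.1 and 1407.6 CPM in the same order. Prkdc, at 9.91, 10.1 and 12.8 CPM, and Rrm2b, at 2.77, 2.72 and 2.49 CPM, were about level across the 3 clusters, with overlapping intervals. Without cluster 7, a choice made after the data were seen, 9 of the 10 genes remained called higher, Rad50 being lost, and both lower calls stayed.

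**Figure D2:**
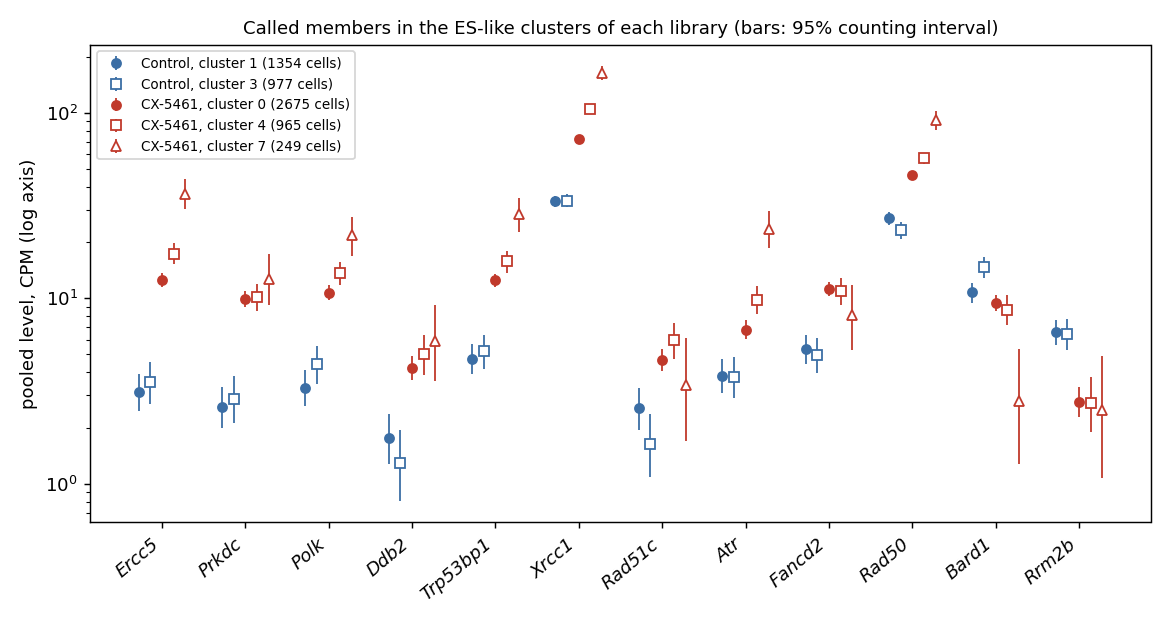
Pooled level in CPM (log axis) of the 12 called genes in each ES-like cluster of the control library (blue) and of the CX-5461 library (red), with bars for 95% counting intervals. For Ercc5, Xrcc1, Atr and Rad50 the triangles of cluster 7 lie above the other red points, while Bard1 is lowest there at 2.81 CPM.

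Cells were also ranked by the share of their UMIs on p53 target genes and divided at tertiles within each library. In the CX-5461 library 5 of the 35 members with enough UMIs (Ercc5, Polk, Rad50, Trp53bp1 and Xrcc1) were at least 1.5-fold higher in the highest than in the lowest tertile, beside 10.5% of all genes, and 0 were as much lower, beside 2.74%. All 5 are among the genes called higher between the libraries, but their number was near that background. Ercc5 stood at 11.7, 13.0 and 20.9 CPM from the lowest to the highest tertile. Polk stood at 8.24, 12.7 and 15.8 CPM, and Xrcc1 at 69.6, 82.2 and 104.4 CPM. H2afx went from 415.9 CPM to 327.6 CPM, and Ddb2 was flat at 4.10, 4.84 and 4.64 CPM. In control cells Polk also differed, at 6.52 CPM in the highest tertile against 2.21 CPM in the lowest, while Xrcc1 was flat. The summed level of all 39 genes was 1432.8 CPM in the lowest and 1409.1 CPM in the highest tertile. Of the 1310 cells in the highest tertile, 230 belonged to cluster 7. Without that cluster, a choice made after the data were seen, only Ercc5 and Polk of the 5 remained at least 1.5-fold higher. That was near the background, 5.65% of all genes. The highest tertile then stood at 17.7 CPM for Ercc5, 14.4 CPM for Polk, 93.5 CPM for Xrcc1, 57.3 CPM for Rad50 and 15.7 CPM for Trp53bp1. The mean depth was 16778 UMIs per cell in the lowest and 13663 in the highest tertile, and its part in these differences was not tested. Between 22.2% and 29.6% of a library's cells lay within 5% of a tertile limit in this and the cell cycle rankings, so the tertiles are ranges, not cell types.

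**Figure D3:**
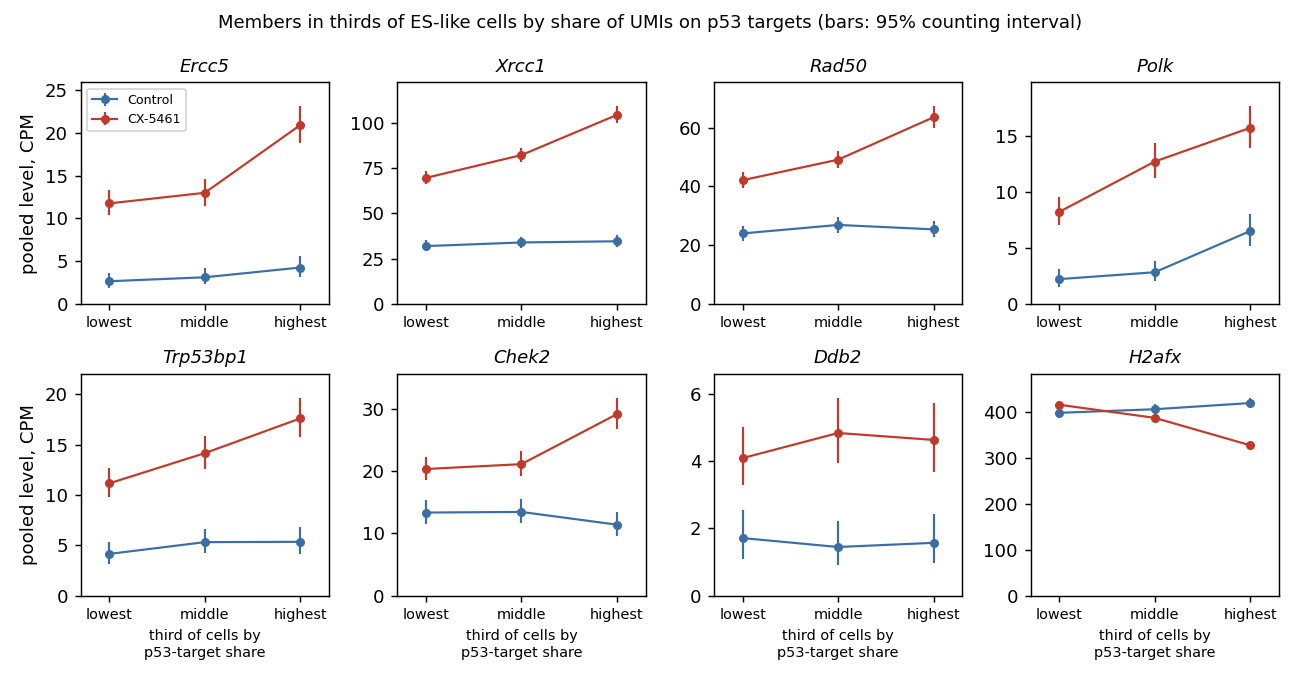
Pooled level in CPM (vertical axes, each from 0) of 8 genes in the lowest, middle and highest tertile of ES-like cells by share of UMIs on p53 targets, control in blue and CX-5461 in red, with 95% counting intervals. Ercc5 goes from 11.7 to 20.9 CPM across the CX-5461 tertiles, Ddb2 stays between 4.10 and 4.84 CPM, and H2afx reaches 327.6 CPM in the highest.

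Many repair genes vary over the cell cycle, and the libraries differed there. Divided at common limits, the tertile with the highest share of UMIs on S-phase genes held 40.9% of control cells and 28.9% of treated cells, and that with the highest share on G2/M genes 23.7% and 39.04%. Inside each S-phase tertile the median log2 ratio of the 39 genes lay above that of all genes, by 0.21, 0.24 and 0.19 from the lowest to the highest. Ercc5 had log2 ratios of 2.35, 2.04 and 2.10 in the 3 S-phase tertiles and Prkdc 1.95, 1.92 and 1.87. Rrm2b had -1.40, -1.28 and -1.06. Of the 12 called genes, 10 stayed past the limit, measured from the all-gene median of the tertile, in every S-phase tertile. The exceptions were Fancd2 in the lowest, 0.50 above that median, and Rad50 in the middle, 0.54 above it. Over the G2/M tertiles 9 stayed past it, and Polk in the highest (0.50 above the median), Rad51c in the lowest (0.42 above) and Bard1 in the highest (-0.57 from it) did not. The tertiles hold the same cells that gave the calls. The share of all called genes that stayed past the limit was not counted, so these counts do not set the members apart. H2afx, whose level in control cells was 343.2 CPM in the lowest and 504.1 CPM in the highest G2/M tertile, had log2 ratios of -0.46, -0.23 and -0.08 there.

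Feeder fibroblasts in the same libraries gave a second cell type, with 197 control and 160 CX-5461 cells at the same depth limits. They express repair genes too, so no cell type here gives a background for free RNA. For levels in the control library a gene needed at least 200 UMIs over both cell types together. The ES-like cells held 41256336 UMIs and the fibroblast-like cells 4485336, so genes high in ES-like cells passed this minimum more easily. Of the 33 members that passed, 28 were higher in ES-like than in fibroblast-like cells by their counting interval, beside 47.5% of all genes that passed. H2afx, at 407.6 against 50.4 CPM, and Brca2, at 18.6 against 1.56 CPM, are examples. Ercc5, Polk and Trp53bp1 were the reverse, with 3.30 against 16.9 CPM for Ercc5, 3.76 against 16.5 CPM for Polk and 4.92 against 7.36 CPM for Trp53bp1.

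Of the genes called higher in ES-like cells, 5 had at least 40 UMIs in the feeders, and 3 of these had feeder intervals that include 1. Ercc5 stood at 16.9 and 17.9 CPM in control and CX-5461 fibroblast-like cells, a ratio of 1.06 (0.752 to 1.48), so that after treatment the 2 cell types held similar amounts. Polk had a feeder ratio of 1.07 (0.758 to 1.504) and Trp53bp1 0.903 (0.519 to 1.56), and none of these intervals reaches the ratio in ES-like cells. Xrcc1, at 1.63 (1.18 to 2.26), and Rad50, at 1.41 (1.07 to 1.88), were above 1 in feeders as well, as were Xpc at 2.59 (1.48 to 4.71) and Msh6 at 2.29 (1.33 to 4.07). The median ratio of the 3898 genes tested in feeders was 1.115. The interval of Rad50 includes it, and those of Xrcc1, Xpc and Msh6 lie above it. Lig1 was lower in both cell types, with a feeder ratio of 0.432 (0.271 to 0.669). The difference between the cell types has no replicate and was not tested. Summed over the set, the feeder level was 281.1 CPM in control and 267.5 CPM after treatment, a ratio of 0.951 (0.876 to 1.03).

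**Figure D4:**
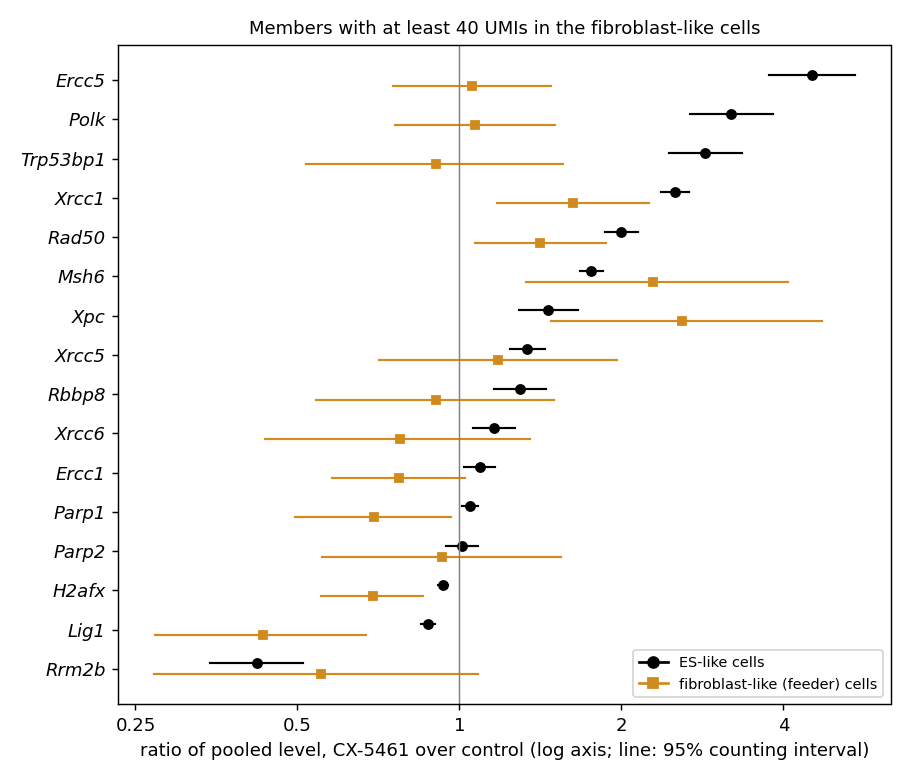
Ratio of the pooled level, CX-5461 over control (log axis), in ES-like cells (black circles) and fibroblast-like feeder cells (orange squares) for the 16 members with at least 40 UMIs in feeders, with 95% counting intervals. Ercc5, Polk and Trp53bp1 lie well right of 1 in ES-like cells and near 1 in feeders, whereas Msh6 and Xpc lie right of 1 in both.

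Many repair genes start back to back with a neighbour, and 15 members had a protein-coding gene on the other strand with its start within 1 kb. The pairs did not share 1 pattern. Prkdc, with a log2 ratio of 1.90, lies beside Mcm4, of the replicative helicase, with -0.08, and Fancd2, with 1.09, beside Emc3, with 0.09. Rad51c, with 1.17, lies beside Tex14, with 1.83, and Chek2, with 0.86, beside Hscb, with 1.28. Xrcc1 starts 171 bases from Pinlyp, which had 10 UMIs in control and 424 in CX-5461-treated cells, 0.242 and 7.01 CPM, a log2 ratio of 4.85. By gene length, 0 of 7 members under 20 kb were called higher, beside 21.8% of all genes of that length, 4 of 15 between 20 and 50 kb, beside 18.8%, 5 of 15 between 50 and 100 kb, beside 20.4%, and 1 of 2 above that, beside 24.96%.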

How the data were processed

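The authors deposited 1 table of raw UMI counts per condition, made from 10x Genomics 3′ v2 libraries with a published droplet pipeline. The build is mm10 per the labels. The methods name Bowtie as that pipeline's aligner, replaced by HISAT2 for repeats, and the annotation is not given in the sources used here. Per the labels the authors worked with Seurat 2.3.4, whose cell filters the deposited counts do not yet carry. The tables held 3838 control barcodes with 49610287 UMIs and 4922 CX-5461 barcodes with 69841836 UMIs. Cells that held 500 UMIs or more and a mitochondrial share no higher than 0.2 were kept (3767 and 4697) and clustered together with scanpy 1.11.5 (log-normalized to 10000 UMIs, 2000 scaled variable genes, 16 principal components, 15 neighbours, Leiden resolution 0.5). Both counts of kept cells exceed those the authors show in their single-cell maps, so their exact cell set was not recovered. A cluster was ES-like where its ES markers reached 0.5 of their overall level, and fibroblast-like or 2C-like with 3 markers among its 50 leading genes. A cluster with a median depth under 1/3 of its library's median lost its name if none of those markers led it. Cluster 2, with 1170 control and 2 CX-5461 cells, was left unnamed this way, although its ES markers stood at 1.075 of their overall level. No doublet caller was run. The 2C-like cells (9 and 82) and unnamed cells (109 and 3) among the deep cells were left out.

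UMIs were summed per library and scaled to library totals. Intervals are exact Poisson intervals for levels and exact conditional binomial intervals for ratios. The TMM factor came from edgeR 4.0.16. Symbols and coordinates are those of GENCODE vM21 on GRCm38, matched for 54079 of 54146 identifiers without version numbers, and promoter windows those of RefSeq. The members and gene lists were chosen with earlier results of these data known. Named are all called genes, the highest and lowest of each route, the 3 highest and 3 lowest other repair genes, and Cdkn1a, Mdm2 and Ccng1. Further genes in the cluster, tertile, neighbour and feeder comparisons were picked after their values were seen. Of the listed repair, cycle and p53 symbols 6 are absent from the annotation. Ratios, calls and thinning were tested on simulated data.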

Additional observations from a re-analysis of the deposited data

Results flagged for a closer look

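In 2 members the ratio of CX-5461 over control lay on opposite sides of 1 in ES-like and fibroblast-like cells, with both counting intervals clear of 1. For Rad54l the ratio was 1.24 (1.13 to 1.36) in ES-like cells and 0.245 (0.0452 to 0.880) in fibroblast-like cells, the latter from 14 and 3 UMIs. For Parp1 it was 1.05 (1.01 to 1.08) and 0.694 (0.495 to 0.967), the latter from 99 and 60 UMIs. Neither was called in ES-like cells, and with the TMM factor, which lowers every log2 ratio in ES-like cells by 0.40, both would lie below 1 there. The difference between the cell types was not tested.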

How the results depend on the processing

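The calls were repeated under 12 planned settings and 5 added after the data were seen. No paired analysis was possible because the count tables carry no replicate, although the labels number the samples 1 to 4 in both conditions. With the TMM factor the calls were the same by construction, while the median log2 ratio of the members was 0.15, and the route medians were 0.15 for checkpoint, 0.12 for recombination, 0.36 for Fanconi, -0.062 for excision, 0.28 for mismatch, 0.19 for end joining and -0.19 for tolerance, the cause being the lower scale. A minimum of 50 UMIs, or none, gave 4 lower calls, beside 19.6% and 24.8% of all genes. Thinning to 5000 UMIs gave 1, beside 16.1%. Its medians were 0.10 for excision and 1.64 for tolerance, since fewer genes passed the minimum. A 2-fold limit left 5 higher calls and 1 lower call, beside 12.8% and 6.77% of all genes. A 1.5-fold limit without centring gave 15 and 1, beside 36.1% and 7.47%. Both higher counts were near those shares. Elsewhere the higher calls numbered 9 to 11, beside 19.8% to 28.0% of all genes. All kept cells gave 3 lower calls, with Lig1 added, beside 16.7% of all genes. The mean within G2/M tertiles also gave 3, with H2afx added, beside 17.3%. The settings not named here kept 2 lower calls. With 1 library per condition none of these settings measures variation between cultures, and members under 10 CPM rest on few UMIs.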
